A study of Mus musculus with 4 samples.

Results

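The cells described here were Prg4-high cells released from mouse femur and tibia, 885 of 15670 kept cells in 2 libraries of single-cell RNA. A cell was a member if it held at least 10 unique molecular identifiers (UMIs) of Prg4 and at least 1 UMI of a partner gene, which could be Htra4, Clic5, Hbegf or F13a1. Barcodes with at least 5 UMIs of Col2a1 and at least 1 UMI of Col9a1 were set aside as chondrocytes. The members were thus chosen by the measured UMIs of these 7 genes, so the levels of these genes are given as a description and were not tested. The young mouse contributed 563 members, 5.59% of its kept cells (exact 95% binomial interval 5.15 to 6.06). The old mouse contributed 322 members, 5.74% (5.15 to 6.38).

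Both animals carried the INK-ATTAC transgene, an inducible caspase-8 driven by a fragment of the p16 promoter, and neither was treated. One mouse was 6 months old (young) and 1 was 24 months old (old), so no comparison between ages has a replicate. Long bones were stripped of soft tissue and cut at their ends, marrow was digested with Liberase and crushed bone with collagenase, and live cells were sorted after lineage depletion as CD45-negative. A DNA-barcoded antibody to CD24 was read in the same cells. The members carried a median of 9301 RNA UMIs per cell (young) and 15961 (old). No member barcode occurred among the members of both libraries, although 19 kept barcodes did occur in both libraries and 2 of the old members' barcodes were among the young kept barcodes. A doublet caller marked 19 young and 7 old members.

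Prg4 encodes lubricin, a mucin-like glycoprotein that coats the surfaces of joints and lowers friction between them. It is made by fibroblasts of the synovial lining, the thin cell layer that faces the joint cavity, and by chondrocytes of the superficial zone of articular cartilage. Lining fibroblasts also make hyaluronan for the synovial fluid, while deeper chondrocytes make aggrecan and type II collagen. The position of a cell in the joint or bone was not measured in these libraries.

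Prg4 itself took 21464 CPM (UMIs of a gene per 1e6 RNA UMIs in the summed cells) of the young members' summed RNA (95% Poisson interval 21346 to 21582). In the old members it took 17731 CPM (17621 to 17842). Per cell it ranged from 10 to 4708 UMIs around a median of 61 in young cells and from 10 to 3916 UMIs around 83.5 in the old mouse. The spread therefore covered more than 2 orders of magnitude within each mouse, and no single cell held more than 3.96% of the Prg4 UMIs.

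Among the partner genes, Htra4, a secreted serine protease of the HtrA family, was found in 63.1% of young and 55.9% of old members. Hbegf, a membrane-bound ligand of the EGF receptor, was found in 53.1% and 54.3%. F13a1, the A subunit of the transglutaminase factor XIII, was found in 26.5% and 21.4%, and Clic5, a chloride intracellular channel family protein linked to the actin cytoskeleton, in 19.9% and 17.7%. Most members qualified through 1 partner gene only (339 young and 219 old), and 41 young and 17 old members held all 4.

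Free RNA is present in droplet libraries, so the same genes were read in cells chosen as neutrophils or B cells (535 young, 514 old; median 3861 and 3306.5 UMIs). Prg4 was detected in 10.1% (young) and 22.4% (old) of them. Htra4 was detected in 0.187% and 0.389%, Hbegf in 0.561% and 0.195%, Clic5 in 2.62% and 2.33%, and F13a1 in 2.99% and 0.584%. After every cell was thinned to 2000 UMIs the shares were 30.4% and 22.4% of members for Htra4, 28.1% and 24.8% for Hbegf, 15.1% and 8.70% for F13a1, and 10.1% and 5.28% for Clic5. In the neutrophil or B cells at this depth none of the 4 exceeded 1.58%. Members had to hold a partner UMI, so their higher shares follow from the rule and are no measure against free RNA.

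The edges of the rule were gradual. Members with 10 to 14 Prg4 UMIs (62 young, 30 old) held Htra4 at 75.9 and 26.7 CPM and Cilp at 662 and 464 CPM. Cells just outside, with 5 to 9 Prg4 UMIs and a partner gene (90 young, 53 old), held Htra4 at 85.2 and 45.3 CPM and Cilp at 368 and 417 CPM. A further 822 young and 474 old cells had at least 10 Prg4 UMIs without any partner gene. In those, Prg4 stood at 4436 and 3352 CPM, well under the members.

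Each member was placed among its 20 nearest cells in a space of 1993 variable genes from which the rule genes had been removed. Of a member's neighbours, 48.4% (young) and 40.2% (old) were members, against 5.59% and 5.74% of all kept cells. For Prg4-high cells without a partner gene the share was 11.5% and 12.3%, and for the other collagen-bearing cells 2.53% and 3.22%. Members thus sat near each other on genes that had not chosen them, although many of their neighbours were other collagen-bearing cells (28.7% and 34.6%). These shares describe cells of 2 libraries and carry no test.

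The members were compared with 4 other cell sets. Other collagen-bearing cells held at least 10 UMIs over Col1a1, Col1a2 and Col3a1 and fewer than 10 Prg4 UMIs (5445 young, 3060 old). Chondrocytes were the Col2a1 Col9a1 cells named above (63 and 21). Fibrochondrocyte-like cells had at least 3 Cytl1 UMIs with Chad or Cilp2 (55 and 26), and Pi16 fibroblasts had at least 3 Pi16 UMIs (563 and 340). UMIs were summed per mouse and cell set, giving 4 sums per comparison, and tested with edgeR's quasi-likelihood test with the mouse as a block and Benjamini-Hochberg adjustment. The 4 comparisons share the members' sums. Each rests on 2 mice and 1 residual degree of freedom. Log2 values below are fitted log2 fold changes ± SE, with the CPM of both mice before them.

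**Figure D1:**
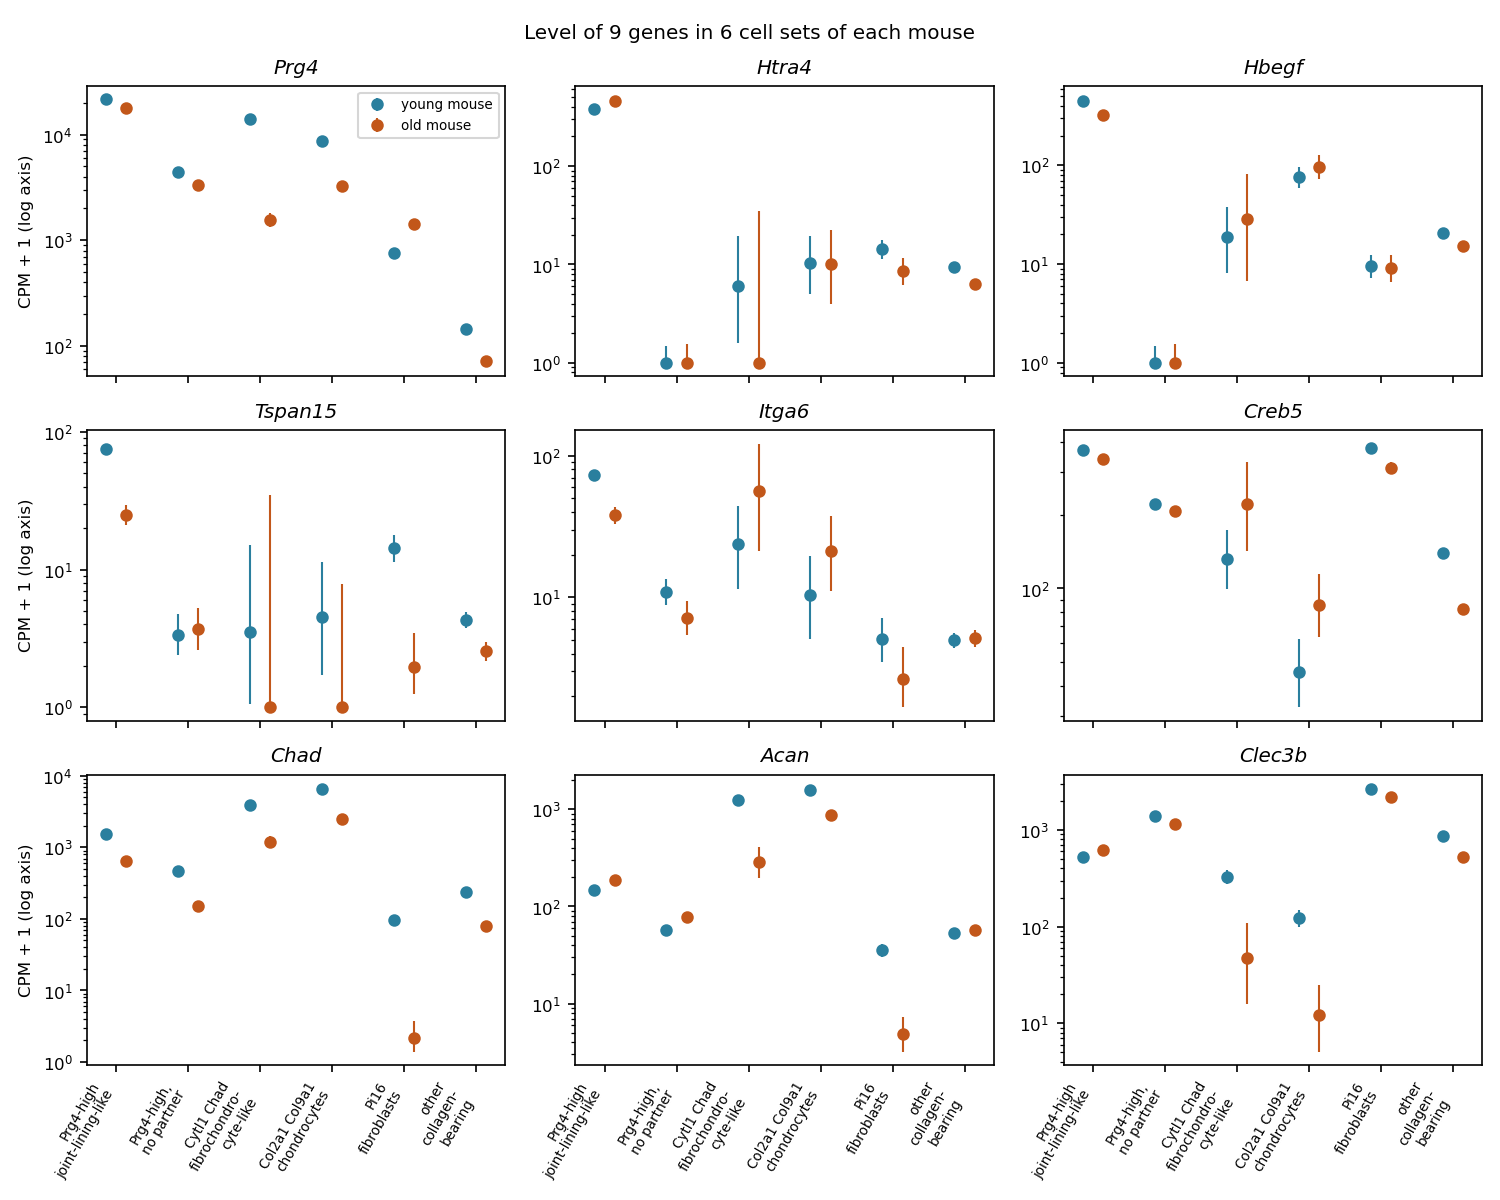
Levels of 9 genes in 6 cell sets, as CPM of the summed UMIs plus 1 on a log axis, with 1 point per mouse and 95% Poisson intervals for counting error. Tspan15 is highest in the members of each mouse, Acan is highest in the chondrocytes and Clec3b is highest in the Pi16 fibroblasts.

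Against the other collagen-bearing cells, 1282 of 15036 genes tested were higher in the members (8.53%) and 1426 were lower (9.48%), with a median log2 fold change over all genes of -0.01. Most genes of the articular surface and cartilage matrix were higher, and genes of marrow stroma and osteoblasts were lower. The joint lining list was divided, with 8 of 14 genes higher and 3 lower. Without the mouse as a block, 1625 genes were called, of which 1623 were among the calls above.

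Lining fibroblast genes outside the rule came first. Of 14 tested, 8 were higher, 3 were lower and 3 did not pass, with a median log2 fold change of 0.85. The higher genes were Tspan15, Itgb8, Has1, Uap1, Timp3, Cd55, Tm4sf1 and Errfi1. Tspan15, a tetraspanin that partners the sheddase ADAM10, was at 74.0 CPM in young members against 3.30 in the comparison cells and at 23.9 against 1.55 in the old mouse (log2 4.41 ± 0.16, adjusted p = 2.45e-05 by edgeR). It was therefore high in the members of both mice, although it was detected in only 16.5% of young and 10.6% of old members. Itgb8, an integrin subunit that activates latent TGF-beta, was at 30.3 against 7.66 CPM and 19.7 against 7.19 CPM (log2 1.88 ± 0.17). Timp3, a tissue inhibitor of metalloproteinases, was at 582 against 348 CPM and 451 against 229 CPM (1.00 ± 0.12). The calls of Timp3 and of the membrane protein Tm4sf1 were lost without the block.

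Of the higher lining genes, Has1 and Uap1 belong to hyaluronan synthesis. Has1, a hyaluronan synthase, stood at 274 CPM in young members against 192, and at 435 against 114 in the old mouse (log2 1.37 ± 0.31, adjusted p = 0.025 by edgeR). Uap1, an enzyme that makes UDP-N-acetylglucosamine, was at 253 against 186 CPM and 282 against 105 CPM (1.08 ± 0.22). Cd55, a complement decay-accelerating factor used as a lining marker, was at 177 against 140 CPM and 181 against 70.1 CPM (0.99 ± 0.23). For these 3 genes the young mouse showed the smaller difference, and their calls were lost without the block or against comparison cells of like depth.

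The hyaluronan list as a whole had 6 of 15 tested genes higher, 1 lower and 8 not passing, with a median of 0.68. Besides Has1 and Uap1 these were the receptor Cd44, the link protein Hapln1, the large proteoglycan Vcan and the hyaluronan-degrading Cemip. The calls of Cd44 and Vcan were lost without the block and at like depth, and Vcan turned for members with at least 2 partner genes. Cemip was at 63.5 against 20.2 CPM and 61.9 against 17.6 CPM (log2 1.88 ± 0.10). Has2, the other main synthase of mesenchymal cells, was at 19.8 against 26.9 CPM and 27.1 against 20.4 CPM and did not pass. Hmmr, a hyaluronan receptor of dividing cells, was lower (log2 -2.97 ± 0.41).

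Lining genes that were lower numbered 3. Cdh11, the cadherin that joins lining fibroblasts to each other, was at 121 CPM in young members against 569 and at 135 against 704 in the old mouse (log2 -2.17 ± 0.11). Vcam1, an adhesion molecule for leukocytes, was at 105 against 432 CPM and 139 against 586 CPM (-1.92 ± 0.11). Both were lower in the members of both mice, and Vcam1 is also on the marrow stroma list. Sema5a, a semaphorin, was also lower (-0.67 ± 0.17), a call lost without the block and at like depth, and it lay above the comparison cells (0.14) for members with at least 2 partner genes. Col22a1, a collagen of tissue junctions, was at 45.2 against 15.4 CPM and 59.8 against 53.2 CPM and did not pass (adjusted p = 0.057 by edgeR).

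Genes of superficial cartilage were higher almost throughout. Of 15 tested, 14 were higher and only Tnc was lower, with a median log2 fold change of 1.13. Erg, an ETS-family transcription factor of articular chondrocytes, was at 41.2 CPM against 3.21 in young cells and 25.7 against 2.47 in old cells (log2 3.68 ± 0.15). Creb5, a transcription factor needed for Prg4 expression in superficial chondrocytes, was at 368 against 139 CPM and 339 against 81.2 CPM (1.88 ± 0.17). Sox5, a partner of Sox9, was at 172 against 31.1 CPM and 125 against 24.6 CPM (2.55 ± 0.10).

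Secreted products of the articular surface came next. Cilp, cartilage intermediate layer protein, was at 1356 against 145 CPM and 1182 against 146 CPM (log2 3.26 ± 0.12). Cytl1, a small secreted protein of cartilage, was at 1950 against 16.4 CPM in young cells and 290 against 2.39 CPM in old cells (7.04 ± 0.14). The ratio to the comparison cells was alike in both mice while the level itself was lower in the old one. Cytl1 was detected in 26.5% of young and 12.7% of old members, and in 2.06% and 21.4% of the neutrophil or B cells. With every cell thinned as for the partner genes, the shares were 21.2% and 9.01% of members and 1.13% and 2.77% of those cells. The part of free RNA in the Cytl1 values was not tested. Gdf5, the growth factor that marks forming joints, was also higher (3.17), and Gas1 was at 1226 against 854 CPM and 1204 against 556 CPM (0.96 ± 0.16), a call lost without the block. Tnc, the matrix protein tenascin C, was at 128 against 665 CPM and 232 against 721 CPM (-1.86 ± 0.19).

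Deep cartilage matrix was higher as well, although the rule removed Col2a1 Col9a1 chondrocytes. Of 16 tested genes 11 were higher, 1 was lower and 4 did not pass (median 2.03). Acan, the aggrecan core protein, was at 148 against 52.7 CPM and 185 against 56.7 CPM (log2 1.74 ± 0.11). Sox9, the master regulator of chondrocytes, was at 317 against 62.9 CPM and 206 against 52.5 CPM (2.30 ± 0.12). Chad, chondroadherin, was at 1544 against 239 CPM and 652 against 78.4 CPM (3.01 ± 0.14), a call lost without the block. Comp, cartilage oligomeric matrix protein, was at 5374 against 1775 CPM and 5923 against 1299 CPM (2.04 ± 0.17). Each of these stood above the comparison cells in both mice, and only Col11a2 was lower (-1.43 ± 0.28), a call lost without the block and at like depth.

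Regulators that are known to act on Prg4 were also described. Of 19 tested, 11 were higher, none was lower and 8 did not pass, with a median log2 fold change of 0.54. Foxo1, a forkhead factor that sustains lubricin in cartilage, was at 119 against 52.8 CPM and 106 against 40.5 CPM (log2 1.42 ± 0.10). The ligand Tgfb1 was at 112 against 63.8 CPM and 108 against 68.1 CPM (0.88 ± 0.10), and its receptors Tgfbr1 (0.73 ± 0.10) and Tgfbr2 (0.54) and the transducer Smad3 (0.85 ± 0.15) were higher too. Of the mechanosensitive channels, Trpv4 was at 14.1 against 2.59 CPM and 10.6 against 3.72 CPM (2.13 ± 0.28), and Piezo1 at 38.3 against 26.6 CPM and 51.3 against 29.0 CPM (0.82 ± 0.12). Nfatc1, a calcium-regulated factor, was at 85.2 against 41.3 CPM and 86.0 against 32.3 CPM (1.37 ± 0.12).

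Hbegf acts through the EGF receptor, so the other genes of that family were counted. Of 10 tested, 3 were higher and 7 did not pass. The higher genes were the ligands Ereg and Btc and the feedback inhibitor Errfi1, at 423 against 331 CPM and 427 against 321 CPM (log2 0.53 ± 0.11). Ereg was low everywhere, at 2.52 against 0.229 CPM and 12.4 against 0.651 CPM (4.09 ± 0.45). Egfr itself was at 146 against 164 CPM and 169 against 148 CPM, and did not pass.

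In the list of joint patterning and bone morphogenetic protein (BMP) signalling, 8 of 23 genes were higher, 6 were lower and 9 did not pass (median 0.25). Bmp2 was at 202 against 47.1 CPM and 151 against 59.6 CPM (log2 1.86 ± 0.18), and the Wnt antagonist Frzb was at 46.9 against 4.57 CPM and 28.9 against 3.04 CPM (3.45 ± 0.13). The lower genes were Bmp4, Bmp5, Bmp6, Wnt16 and the BMP antagonists Grem1 and Chrdl1. Chrdl1 was at 24.4 against 207 CPM and 28.9 against 277 CPM (-3.03 ± 0.11). Ligands and antagonists of this family therefore moved in both directions.

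Adhesion genes divided in the same manner, with 7 of 16 higher, 4 lower and 5 not passing (median 0.28). Itga6, the laminin-binding integrin alpha-6 subunit, was at 71.6 against 3.97 CPM and 37.0 against 4.13 CPM (log2 3.84 ± 0.23). Cdh13 was higher (1.49 ± 0.13), and so was the tetraspanin Cd9 (0.89 ± 0.11), a call lost without the block. Cdh2, N-cadherin, was at 13.8 against 139 CPM and 18.7 against 171 CPM (-3.12 ± 0.12), and the connexins Gja1 and Gjc1 were lower with it and with Cdh11.

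Marrow stroma and bone-forming genes were lower than in these comparison cells. All 9 marrow stroma genes tested were lower (median -2.79), among them the leptin receptor Lepr (85.7 against 466 CPM and 88.5 against 643 CPM, log2 -2.51 ± 0.13), the chemokine Cxcl12 (-2.20 ± 0.16) and stem cell factor Kitl (-3.31 ± 0.12). All 10 osteoblast genes outside the cell-set definitions were lower (median -2.29). Bglap, osteocalcin, whose reads can be split with its near copy Bglap2, was at 240 against 1019 CPM and 139 against 2921 CPM (-3.09 ± 0.50), and Runx2 at 48.6 against 170 CPM and 39.5 against 189 CPM (-1.89 ± 0.13). Of 10 tendon genes 4 were higher, 2 were lower and 4 did not pass (median 0.29). Of 13 genes of sublining and adventitial fibroblasts only Ccl11 was lower and 12 did not pass.

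**Figure D2:**
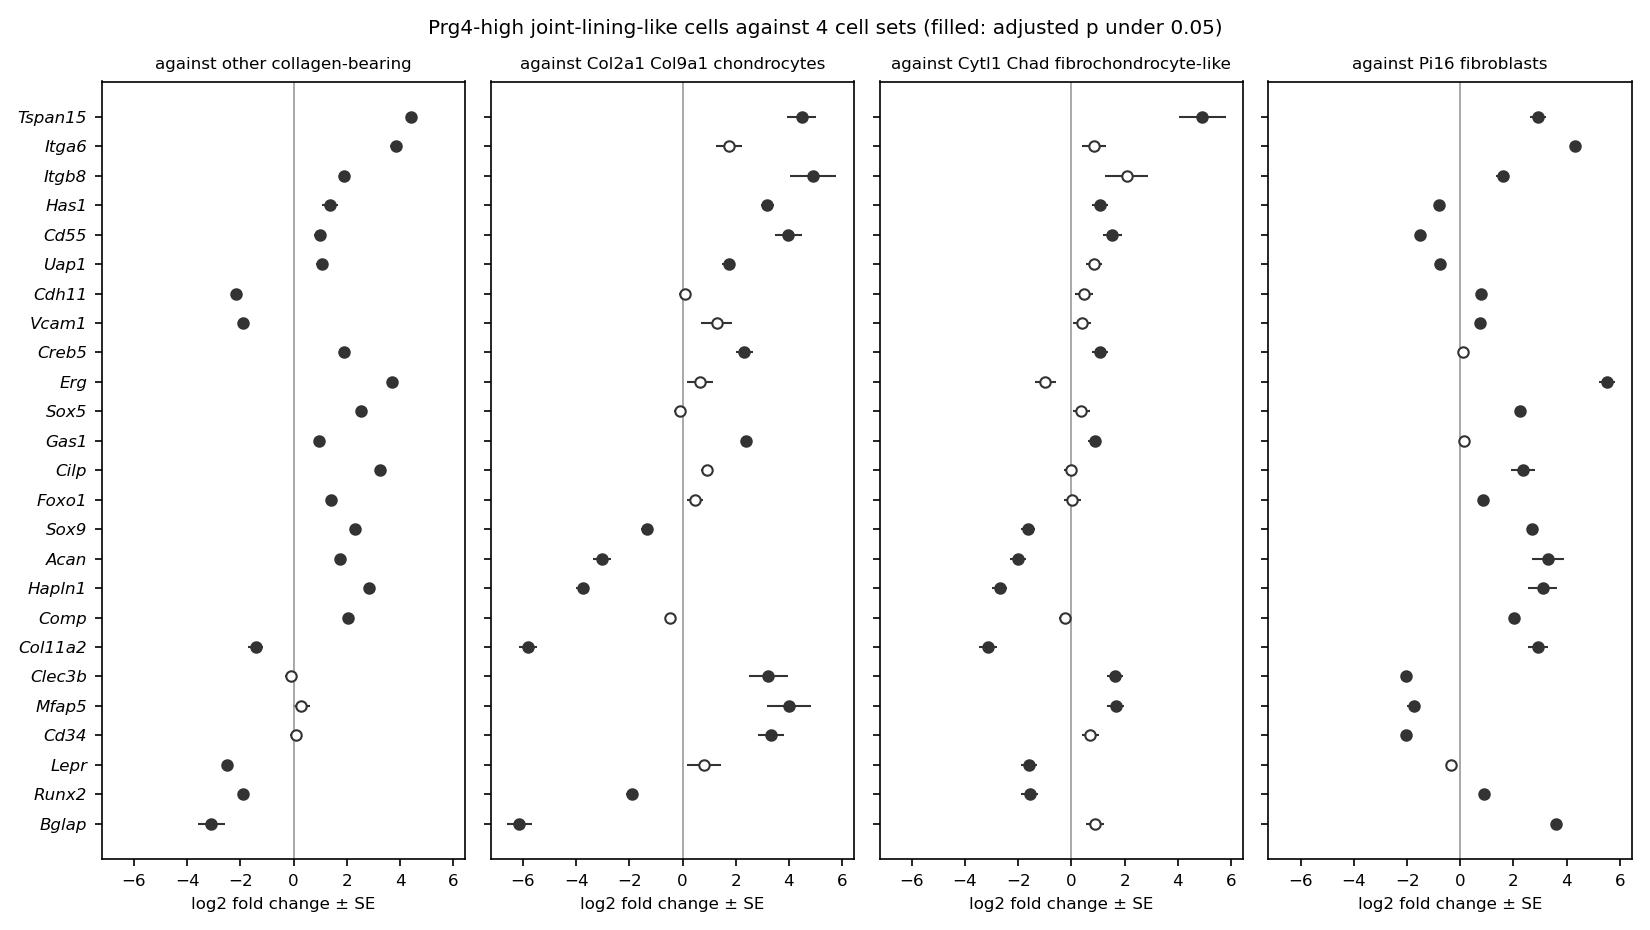
Fitted log2 fold change ± SE of the members against each of 4 cell sets for 25 genes, with filled points where the Benjamini-Hochberg adjusted p of edgeR's quasi-likelihood test was below 0.05. Cartilage matrix genes such as Acan and Hapln1 lie above 0 against collagen-bearing cells and Pi16 fibroblasts and below 0 against both cartilage-like sets.

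By the fixed rule on size, the highest log2 fold changes after Cytl1, leaving out Cilp and Chad given above, were Npy (4.90 ± 0.14), Scrg1 (4.84 ± 0.20), Snorc (3.76 ± 0.12), Calcrl (3.42 ± 0.10), Tnfrsf11b (3.39 ± 0.11), Ecrg4 (3.24 ± 0.29), Slurp1 (3.21 ± 0.53) and Sbsn (3.14 ± 0.12). Calcrl, a receptor for calcitonin gene-related peptide and adrenomedullin, was at 115 against 12.0 CPM and 98.7 against 9.99 CPM. Tnfrsf11b, osteoprotegerin, the decoy receptor for RANKL, was at 259 against 26.1 CPM and 232 against 25.5 CPM. Both were about as far above the comparison cells in the old mouse as in the young one. The phosphate transporter Slc20a1 (2.90 ± 0.13), the link protein Hapln1 (2.82 ± 0.12) and Angptl7 (2.76 ± 0.11) followed.

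Msmp, a secreted microseminoprotein family gene, had the largest fitted value (log2 8.80 ± 0.77) but was held by few cells. It was detected in 21 young and 6 old members, and 1 cell held 86.7% of its UMIs in the old mouse. Npy was found in 68 young and 30 old members, Snorc in 74 and 13, and Slurp1 in 70 and 30. For these, 1 cell held 33.7%, 28.8% and 28.3% of the old UMIs. The calls of Snorc, Slurp1, Chad and Angptl7 were lost without the block. The lowest values belonged to the neutrophil genes Camp (-6.82 ± 0.17) and Ngp, the haemoglobin genes Hba-a1, Hbb-bt and Hbb-bs, and Adipoq (-3.91 ± 0.12), Iigp1, Kng1, Car3 and Tnfrsf19.

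Markers of other cell types were read beside these results. Of the 7 macrophage markers tested 5 were lower in the members, and the whole list of 14 summed to 35.3 CPM in young and 53.8 CPM in old members, against 126 and 174 CPM in the comparison cells. The macrophage genes Adgre1, Mrc1 and Vsig4 were at 0 in the members of both mice, and Ptprc, which encodes CD45, was at 2.19 and 2.51 CPM. Neutrophil markers summed to 142 and 1036 CPM in the members and 1579 and 2766 CPM in the comparison cells, with 5 of 7 lower. Erythroid markers summed to 79.3 and 90.5 CPM against 1462 and 826 CPM, with 7 of 8 lower. Endothelial markers summed to 6.22 and 10.6 CPM against 17.5 and 12.6 CPM, and 1 of 4 tested was lower.

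The remaining marker lists gave few calls in the higher direction. All 4 adipocyte genes tested and 4 of 8 pericyte and smooth muscle genes were lower. B-lineage markers had 1 of 7 lower, megakaryocyte markers 0 of 5 called and skeletal muscle markers 0 of 4 called by edgeR. Of 3 Schwann cell genes tested 1 was higher, with Sox10 at 0 in the members of both mice. The part of free RNA from these cell types in the differences above was not tested.

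Inflammatory and stress genes were mixed. Of 19 inflammatory genes 6 were higher, 4 were lower and 9 did not pass (median 0.41). Il11, a cytokine of the IL-6 family, was at 26.2 against 2.91 CPM and 10.8 against 2.58 CPM (log2 2.81 ± 0.29). Il6 was at 71.9 against 60.8 CPM and 120 against 57.8 CPM (0.80 ± 0.19), and Ptgs2, cyclooxygenase-2, was at 124 against 90.1 CPM and 99.4 against 38.7 CPM (1.05 ± 0.21). Both calls were lost without the block and at like depth, and for members with at least 2 partner genes Il6 lay below the comparison cells (-0.87). Igfbp4, Igfbp3, Csf1 and Cxcl5 were lower.

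Of 16 immediate-early genes, 9 were higher, none was lower and 7 did not pass (median 0.56), with Ier3 at 499 against 301 CPM and 505 against 207 CPM (log2 1.15 ± 0.16). These genes also respond to enzymatic digestion, whose part was not tested. Among 13 genes of arrest and survival 3 were higher and 3 lower. Cdkn1a, the inhibitor p21, was at 472 against 265 CPM and 370 against 178 CPM (1.09 ± 0.12). Cdkn2a, the locus of p16, was at 6.05 against 2.34 CPM and 23.3 against 7.73 CPM (1.65 ± 0.20), a call lost without the block. The proliferation genes Mki67 (-2.02 ± 0.19) and Top2a (-2.02) were lower.

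Proteases and their inhibitors moved in both directions. Of 19, 4 were higher, 7 were lower and 8 did not pass (median -0.38). Mmp13, collagenase 3, was at 124 against 870 CPM and 200 against 702 CPM (log2 -2.16 ± 0.24). The serine protease Htra1 was at 679 against 383 CPM and 851 against 345 CPM (1.21 ± 0.15), and the inhibitor Timp1 at 384 against 239 CPM and 477 against 253 CPM (0.94 ± 0.12). Of 15 basement membrane and fibrillar collagen genes 1 was higher, 3 were lower and 11 did not pass (median -0.04).

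The next comparison was with the Col2a1 Col9a1 chondrocytes. Of their neighbours, 52.1% (young) and 10.7% (old) were chondrocytes. In the old mouse 45.7% were other collagen-bearing cells and 30.2% were members. The 21 old chondrocytes thus sat mostly among cells of other sets. Of 11490 genes tested, 449 were higher in the members (3.91%) and 415 were lower (3.61%), with a median log2 fold change of 0.02. Most deep cartilage genes were lower in the members and most sublining genes were higher, while most lining and superficial cartilage genes did not pass. Of 16 deep cartilage genes 14 were lower and 2 did not pass (median -4.52). Cnmd, chondromodulin, was at 4.03 CPM in young members against 1579, and at 0 against 295 in the old mouse (-9.26 ± 0.58). Acan was at 148 against 1573 CPM and 185 against 883 CPM (-3.03 ± 0.32). Other genes with the lowest values were the citrate transporter Slc13a5, the antitrypsin copies Serpina1a and Serpina1d, whose near-identical sequences can share reads, Mia, Car12, Matn3, Panx3, Col9a3 and Col9a2. The calls of Serpina1a, Sox9, Chad and Clec3b in this comparison were lost without the block.

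Superficial cartilage genes gave 4 higher, 1 lower and 10 not passing of 15 (median 0.92). Creb5 was at 368 against 44.6 CPM and 339 against 84.8 CPM (log2 2.32 ± 0.31), and Gas1 at 1226 against 210 CPM and 1204 against 194 CPM (2.40 ± 0.21). Pthlh, which encodes parathyroid hormone-related protein, was at 40.8 against 2.35 CPM and 25.7 against 3.69 CPM (3.37 ± 0.52). Dkk3 was the other higher gene, and Cytl1 was lower (-2.40 ± 0.48), a call lost without the block. Erg was at 41.2 against 11.7 CPM and 25.7 against 27.7 CPM and Cilp at 1356 against 493 CPM and 1182 against 692 CPM, neither of which passed.

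Of 14 lining genes 5 were higher than in chondrocytes and 9 did not pass (median 0.91). Cd55 was at 177 against 16.4 CPM and 181 against 1.84 CPM (log2 3.98 ± 0.50), and Has1 at 274 against 27.0 CPM and 435 against 40.6 CPM (3.19 ± 0.25). Tspan15 was at 74.0 against 3.52 CPM and 23.9 against 0 CPM (4.48 ± 0.54), a call lost without the block. Itgb8 and Uap1 were the others. Egfr was at 146 against 27.0 CPM and 169 against 14.8 CPM (2.67 ± 0.33) and was the only called gene of its family.

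Sublining and adventitial genes were higher in 11 of 13 tested (median 3.03), among them Thy1 (log2 3.99), Cd34 (3.32) and Mfap5 (3.99 ± 0.83). Of 15 inflammatory genes 8 were higher and 7 did not pass (median 3.02). Il6 had 428 and 670 UMIs in the members and none in the chondrocytes of either mouse. Taking 3 counts over the group as the limit for chondrocytes, Il6 was at least 44.3-fold higher in the members' summed UMIs. It was held by 35 young and 45 old members, and 1 cell held 19.2% and 20.7% of its UMIs. The limit counts UMIs and does not cover the spread between cells. Ccl2 was at 177 against 5.87 CPM and 344 against 1.84 CPM (5.60 ± 0.48), and Ptgs2 at 124 against 3.52 CPM and 99.4 against 0 CPM (5.55 ± 0.52). Ccl2 was held by 56 young and 67 old members and Ptgs2 by 77 and 49.

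The other genes with the largest values against chondrocytes were Angptl7 (log2 7.80 ± 0.76), Pi16 (7.38 ± 0.56), Cxcl2, Fgl2 (6.16 ± 0.38), Ccl7, Calcrl, Tagln, Pi15, Pdlim1, Pla1a, Ccdc3 and Gpnmb. Cxcl2 was held by 37 young and 36 old members, and 1 old cell held 51.0% of the Tagln UMIs. Of 11 osteoblast genes 9 were lower in the members and 2 did not pass (median -3.64), with Bglap at 240 against 8362 CPM and 139 against 15054 CPM (-6.13 ± 0.46). The chondrocyte set thus held more Bglap than the other collagen-bearing cells of both mice. The part of osteoblast RNA in these chondrocyte barcodes was not tested. All 4 neutrophil markers tested were higher in the members than in the chondrocytes, the reverse of the comparison above, so the inflammatory list was read beside a neutrophil signal whose part was not tested. With 63 and 21 chondrocytes, a gene absent from their sums may be absent through depth.

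Against fibrochondrocyte-like cells the differences were fewer. Of 11229 genes tested, 172 were higher (1.53%) and 188 lower (1.67%), with a median log2 fold change of 0.06. Cartilage matrix was again lower in the members, and lining and sublining genes were higher where they passed. Without the block 83 genes were called, 26 higher and 57 lower. The fit found no spread of variance between genes, so 1 common spread was used, and its small p-values rest on that. In the old mouse the 26 comparison cells had a median of 1762 UMIs and 63.3% of their neighbours lay outside all sets named here. Cytl1, which helps to choose this set, was also detected in 21.4% of old neutrophil or B cells. The part of free RNA in this choice was not tested.

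Of 14 deep cartilage genes 13 were lower and 1 did not pass (median -2.80). Hapln1 was at 110 against 1023 CPM and 82.6 against 333 CPM (log2 -2.70 ± 0.30), and Sox9 at 317 against 691 CPM and 206 against 896 CPM (-1.63 ± 0.27). Of 14 lining genes 5 were higher and 9 did not pass (median 0.67). Tspan15 was at 74.0 against 2.53 CPM and 23.9 against 0 CPM (4.92 ± 0.87), Cd55 at 177 against 53.2 CPM and 181 against 73.9 CPM (1.54 ± 0.35), and Pdpn, podoplanin, at 101 against 35.4 CPM and 81.0 against 37.0 CPM (1.37 ± 0.40). Col22a1 had no UMI in the fibrochondrocyte-like cells of either mouse, and with 3 counts as the limit over that group it was at least 8.76-fold higher in the members' summed UMIs. This limit too counts UMIs and does not cover the spread between cells. The calls of Tspan15 and Pdpn were lost without the block.

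Superficial cartilage genes gave 3 higher (Creb5, Abi3bp and Gas1) and 9 not passing of 12 (median 0.45). Cilp was at 1356 against 1230 CPM and 1182 against 1312 CPM and Comp at 5374 against 6165 CPM and 5923 against 7077 CPM, and neither passed. The fitted difference for Cilp was -0.02 ± 0.24 on the log2 scale. Sublining genes were higher in 7 of 13 and collagens in 7 of 18. Of 6 neutrophil markers 4 were lower in the members and 2 did not pass (median -1.86), and their part in these differences was not tested. The largest values were Tagln (5.27 ± 0.74), Pi15, Calcrl (4.78 ± 0.63), Pla1a, Ccl2, Chst2, Gpnmb, Pdlim1, Postn, Ccl7, Aebp1 (2.66 ± 0.29), Cthrc1, Nox4, Lrrc17 and Fgl2. The lowest were the antitrypsin copies Serpina1a, Serpina1b and Serpina1c, then Fxyd2, Prkg2, Col11a2, Prss50, Fxyd3, Ucma and Fgfr3. Besides the genes already named, the calls of Creb5, Gas1, Has1, Acan, Clec3b, Ecrg4, Tagln, Pdlim1, Postn, Cthrc1, Nox4, Lrrc17 and Ucma were lost without the block.

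Pi16 fibroblasts, known as adventitial progenitor-like fibroblasts, were the last cell set compared. Of 12349 genes tested, 1125 were higher in the members (9.11%) and 1075 lower (8.71%), with a median log2 fold change of 0.00. Cartilage, tendon and osteoblast genes were higher in the members while sublining genes and part of the lining list were lower. Without the block 1131 genes were called, all of them among the calls above. Of 12 sublining genes 11 were lower and 1 did not pass (median -1.46), with Clec3b at 525 against 2670 CPM and 616 against 2206 CPM (-2.04 ± 0.12) and Cd34 at 201 against 997 CPM and 226 against 848 CPM (-2.05 ± 0.11).

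The lining list divided within itself here, with 8 of 14 higher, 5 lower and 1 not passing (median 0.57). Col22a1 (log2 6.90) and Tspan15, at 74.0 against 13.3 CPM and 23.9 against 0.954 CPM (2.92 ± 0.31), were higher in the members. Cd55 was at 177 against 641 CPM and 181 against 448 CPM (-1.52 ± 0.13), and Has1 at 274 against 670 CPM and 435 against 586 CPM (-0.80 ± 0.18). Pdpn, Uap1 and Ugdh were lower too. The hyaluronan synthesis genes of the list were thus higher in Pi16 fibroblasts than in the members, including Has2 at 19.8 against 96.9 CPM and 27.1 against 77.3 CPM (-1.84 ± 0.18). The calls of Has1 and Tspan15 were lost without the block.

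Of 15 superficial cartilage genes 10 were higher, 1 was lower and 4 did not pass (median 1.69). Erg was at 41.2 against 0.579 CPM and 25.7 against 0.954 CPM (log2 5.52 ± 0.31). Creb5 was at 368 against 374 CPM and 339 against 310 CPM and did not pass. Of 15 deep cartilage genes 12 were higher and 3 did not pass (median 2.70), and of 10 tendon genes 8 were higher and 2 did not pass (median 1.67). Of 10 osteoblast genes 8 were higher, 1 was lower and 1 did not pass (median 2.09), the reverse of their direction against the other collagen-bearing cells. Itga6 was at 71.6 against 4.05 CPM and 37.0 against 1.67 CPM (4.30 ± 0.18) and Bmp2 at 202 against 39.6 CPM and 151 against 42.9 CPM (2.14 ± 0.15).

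The largest values against Pi16 fibroblasts were Msmp (log2 10.27 ± 0.28), Npy (7.71 ± 0.18), Chad, Clu (5.22 ± 0.09), Cilp2, Cytl1, Spp1, Ecrg4, Cemip, Tnfrsf11b, Cox4i2, Rgcc, Fibin, Cpe and Wif1. Clu, the chaperone clusterin, was at 3896 against 110 CPM and 2177 against 60.1 CPM. The lowest were the neutrophil genes Camp, Ngp, S100a9, S100a8 and Retnlg with Lyz2, and Tek, Ccl11, Engase and Qpct. The calls of Chad, Cytl1, S100a9, S100a8 and Retnlg were lost without the block. All 7 neutrophil markers were lower in the members. Of 18 inflammatory genes 3 were higher, 9 lower and 6 did not pass (median -0.74).

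Within the members, cells were divided by their Prg4 CPM into tertiles of 188, 188 and 187 young and 108, 107 and 107 old cells. This division uses a rule gene and was chosen with values in view, so it carries no test. Tspan15 was at 13.8, 26.4 and 185 CPM from the lowest to the highest young tertile and at 0.507, 10.5 and 60.4 CPM in the old mouse. Itga6 followed at 17.5, 52.9 and 149 CPM and at 6.59, 25.7 and 78.9 CPM. Creb5 went from 250 through 315 to 548 CPM and from 241 through 304 to 473 CPM. Tspan15, Itga6 and Creb5 were thus highest where Prg4 was highest, in both mice.

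Other genes ran the opposite way or peaked in between. Thy1, the glycoprotein CD90 that marks sublining fibroblasts, was at 70.4, 25.9 and 3.06 CPM in young cells and at 101, 33.9 and 3.71 CPM in the old mouse. Clec3b, tetranectin, went from 830 through 482 to 227 CPM and from 1148 through 550 to 121 CPM. Comp was at 4149, 8110 and 4195 CPM in the young mouse, with its highest level in the middle tertile. Rgs5, a pericyte marker, was at 1.84, 6.06 and 286 CPM and at 1.52, 9.35 and 106 CPM, so the highest tertile held nearly all of it. The neighbours of a cell were members in 21.1%, 51.6% and 72.5% of cases from the lowest to the highest young tertile and in 18.8%, 38.2% and 63.8% in the old mouse.

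**Figure D3:**
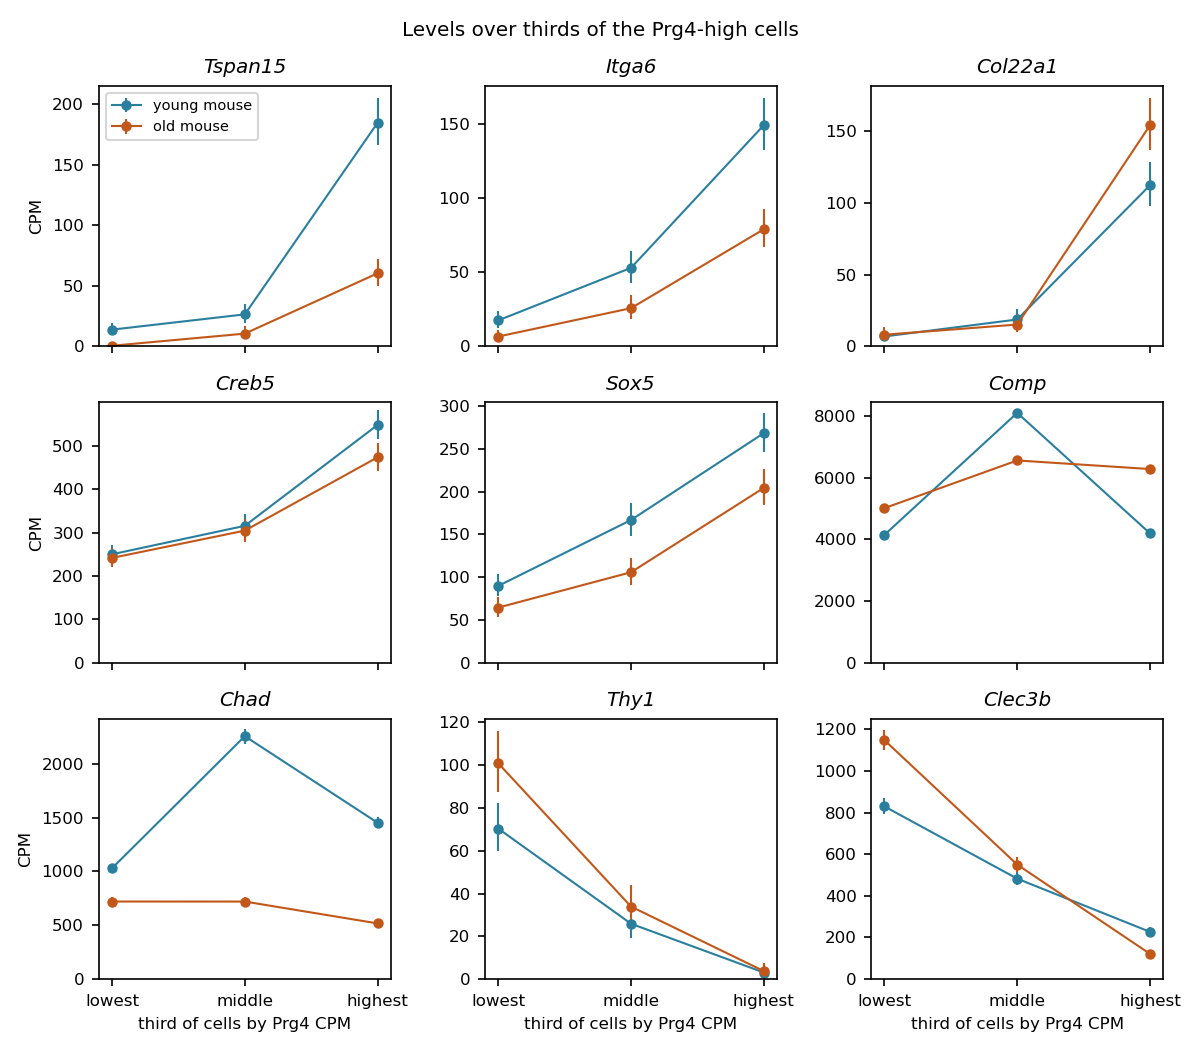
CPM of 9 genes in members divided by Prg4 level into 3 groups of near equal size per mouse, with 95% Poisson intervals for counting error. Tspan15, Itga6, Col22a1, Creb5 and Sox5 are highest in the group with most Prg4, while Thy1 and Clec3b are lowest there.

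The members were not uniform, and the name joint-lining-like describes some of them better than others. Members with a Clic5 UMI (112 young, 57 old) had Prg4 at 40121 and 37436 CPM, Tspan15 at 266 and 106 CPM and Creb5 at 595 and 535 CPM. Their cartilage matrix was low, with Acan at 24.2 and 38.8 CPM and Sox9 at 89.0 and 109 CPM. Members with F13a1 (149 and 69) resembled them, with Prg4 at 37163 and 37112 CPM, Tspan15 at 204 and 84.8 CPM and Ptprc at 0 and 5.26 CPM. In 68 young and 28 old members Clic5 and F13a1 were found together.

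Members with at least 3 Chad UMIs made up 215 young cells (38.2%) and 55 old cells (17.1%). They held Acan at 359 and 738 CPM, Sox9 at 649 and 546 CPM, Cilp at 2978 and 2091 CPM and Ibsp, bone sialoprotein, at 5389 and 6676 CPM. Tspan15 was at 7.66 CPM in the young cells and had no UMI in the old ones, and Clic5 was at 14.8 and 6.76 CPM. Their Prg4, at 22611 and 17869 CPM, was nevertheless close to that of all members. The partner genes Htra4, at 188 and 159 CPM, and Hbegf, at 373 and 389 CPM, were present in them, as the rule requires of at least 1 partner gene in each cell.

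A further set held at least 1 Pi16 UMI (68 young, 61 old). It had Prg4 at 8495 and 8352 CPM, Has1 at 544 and 986 CPM, Mfap5 at 757 and 1398 CPM and Clec3b at 1608 and 1613 CPM. Only 16 young and 2 old members had both 3 Chad UMIs and a Pi16 UMI. These sets were drawn after values were seen, overlap in part and were not tested.

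**Figure D4:**
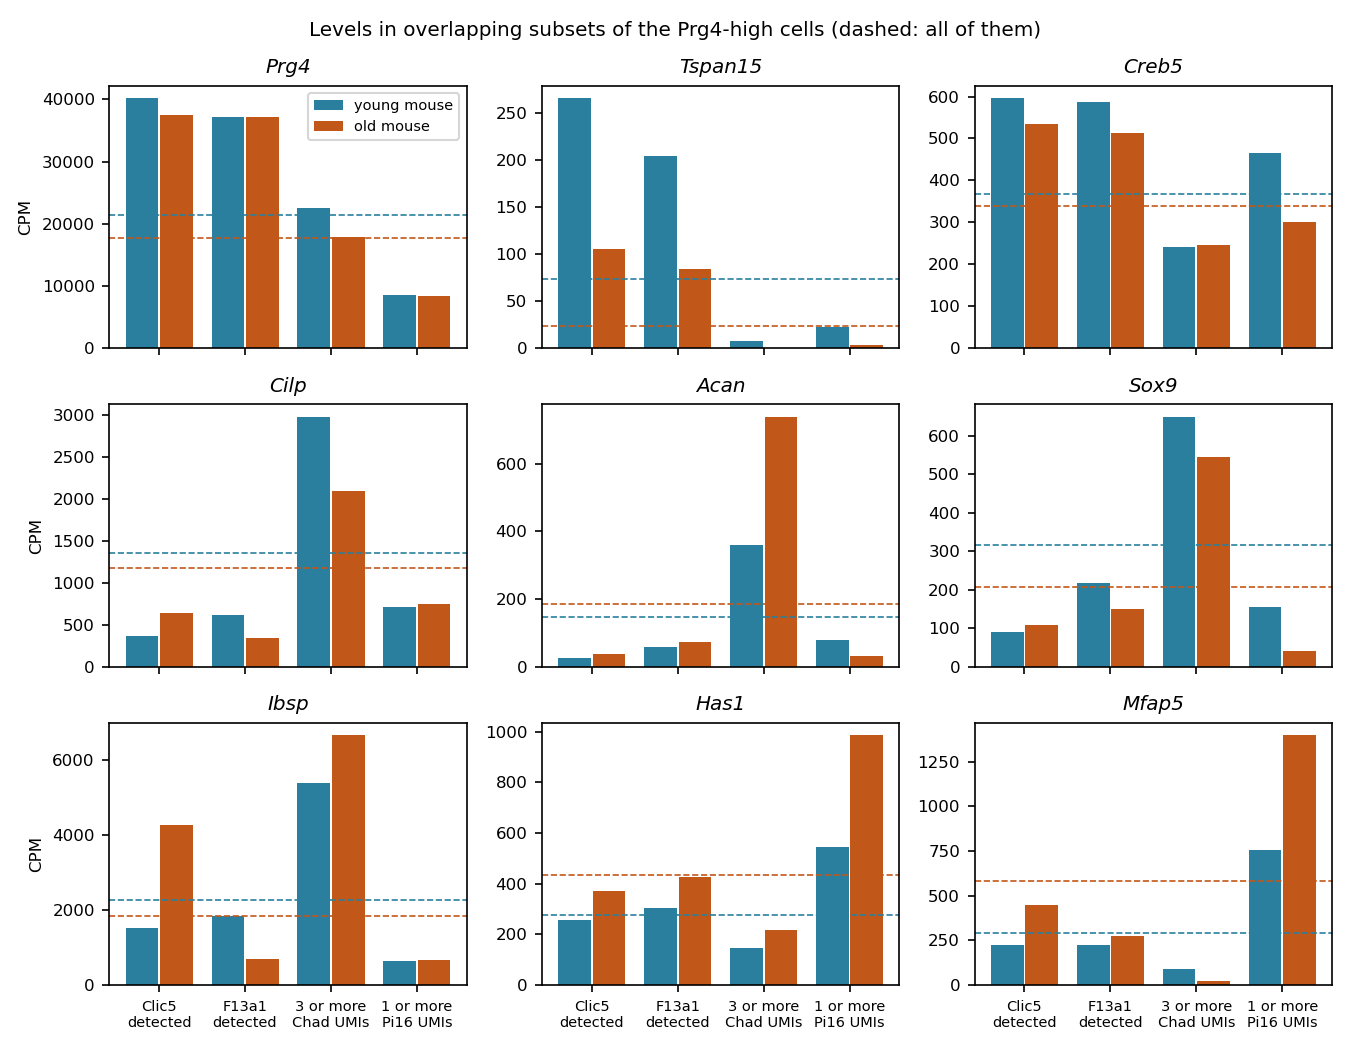
CPM of 9 genes in members with a Clic5 UMI, members with an F13a1 UMI, members with at least 3 Chad UMIs and members with a Pi16 UMI, as bars per mouse starting at 0, with dashed lines for all members. Tspan15 stands out in the Clic5 and F13a1 cells, Acan, Sox9, Cilp and Ibsp in the Chad cells, and Has1 and Mfap5 in the Pi16 cells.

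Across all collagen-bearing cells and members, thinned to 2000 UMIs, the genes most like Prg4 by Spearman's rho were Fn1, fibronectin (0.37 over 6653 young and 0.49 over 3800 old cells, mean 0.43), Dcn (mean 0.36), S100a4 (0.35), Vim (0.34), S100a6, Crip1, Gsn, Cilp (0.32), Comp (0.29) and Lgals3. The cells of a mouse share a library, and the values are given with no test. Fibronectin and decorin are matrix proteins of most connective tissues, and Cilp and Comp were the cartilage genes among the 10.

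CD24, a surface protein read by the antibody and not used by the rule, was above the library's own threshold in 86 young members (15.3%, exact interval 12.4 to 18.5) and 25 old members (7.76%, 5.09 to 11.2). Among the other collagen-bearing cells the shares were 9.48% and 6.05%, and among chondrocytes 36.5% and 33.3%. Among all kept cells they were 15.4% and 13.2%, so the members were not above their library as a whole. The median was 92 antibody UMIs per young member and 88 per old member, close to all kept cells of each library (92 and 95). The thresholds were 319 and 410 UMIs, and above a common 300 UMIs the members' shares were 16.0% and 10.2%. Cd24a mRNA was at 38.7 and 25.7 CPM. By share above the threshold the members lay between the other collagen-bearing cells and the chondrocytes in each mouse. By median the old members, at 88, lay below both the other collagen-bearing cells (92.5) and the chondrocytes (143).

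With 1 mouse per age, old and young members were compared by value only, and age cannot be told apart from the animal, library and depth. The share of members was 5.59% and 5.74% on all UMIs. After every cell was thinned to 5000 UMIs and the rule applied again, it was 5.31% of 6402 young cells (4.77 to 5.89) and 3.82% of 4399 old cells (3.27 to 4.43). The old library was the deeper one. Intervals cover counting error only.

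Of 3109 genes with at least 50 CPM in 1 of the mice, 33 were at least 2-fold higher in old members (1.06%) and 26 at least 2-fold lower (0.836%), around a median log2 ratio of 0.00. Sfrp2, a secreted frizzled-related Wnt modulator, was at 5.88 CPM in young and 283 CPM in old members (log2 5.59, interval 5.10 to 6.11), found in 14 and 55 cells. In the other collagen-bearing cells its log2 ratio was 0.13. Pcsk5, a proprotein convertase, was at 35.6 and 120 CPM (1.75), found in 131 old members, and the interferon-inducible Ifi205 was at 19.5 and 82.2 CPM (2.08). Ifi27l2a was higher too (1.71), and Eln, elastin, was at 8.40 and 64.1 CPM with 40.6% of its old UMIs in 1 cell.

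Several of the highest ratios belonged to genes of blood cells. Retnlg was found in 22 old members and Pf4 in 21, while S100a8 was found in 66, S100a9 in 97 and Igkc in 146 (45.3%). The part of free RNA in these ratios was not tested. For Retnlg (log2 4.84) 1 cell held 68.1% of the old UMIs, for Pf4 (3.94) 96.4%, for S100a8 (3.23) 62.3% and for S100a9 (2.91) 55.6%. Igkc, an immunoglobulin light chain, was at 2.52 and 51.3 CPM in members, while in the other collagen-bearing cells it went from 5.99 to 2391 CPM. The neutrophil markers, which include Retnlg, S100a8 and S100a9, summed to 142 CPM (young) and 1036 CPM (old), and 16 young and 17 old members held at least 5 UMIs of them.

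Of 7 deep cartilage genes at 50 CPM or more 2 were at least 2-fold lower in old members and none was higher. Cytl1, on the superficial cartilage list, was at 1950 and 290 CPM (log2 -2.75, interval -2.82 to -2.67), with a ratio of -2.78 in the other collagen-bearing cells. Snorc, a chondrocyte membrane proteoglycan on the deep cartilage list, was at 277 and 63.0 CPM (-2.14, against -1.80). Angptl7, on neither cartilage list, was at 561 and 172 CPM (-1.71, against -1.51). In each case the ratio was similar in cells that were not members. Chad was at 1544 and 652 CPM (-1.24), and members with at least 3 Chad UMIs were a smaller share of the old members, as given above.

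Chil1, a chitinase-like glycoprotein, was at 209 and 56.9 CPM (log2 -1.88), where the other collagen-bearing cells had a ratio of 0.40. Tspan15 was at 74.0 and 23.9 CPM (-1.63, interval -1.92 to -1.35), and Id1, an inhibitor of helix-loop-helix factors induced by BMP signalling, at 252 and 86.9 CPM (-1.54). Dmkn, Car1 and Gm13889 were also lower, and Gm8797 fell alike in members and other collagen-bearing cells (-4.19 and -4.21).

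Most lining and cartilage genes did not pass the 2-fold limit between ages. Of 12 lining genes at 50 CPM or more 1 was lower in old members and none was higher, and of 12 superficial cartilage genes 2 were lower. Creb5 was at 368 and 339 CPM, Cilp at 1356 and 1182 CPM, Comp at 5374 and 5923 CPM and Cd55 at 177 and 181 CPM. Has1 was at 274 and 435 CPM (log2 0.67) in members and at 192 and 114 CPM (-0.76) in the other collagen-bearing cells. Cdkn2a was below the 50 CPM limit at 6.05 and 23.3 CPM, found in 15 and 40 members.

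**Figure D5:**
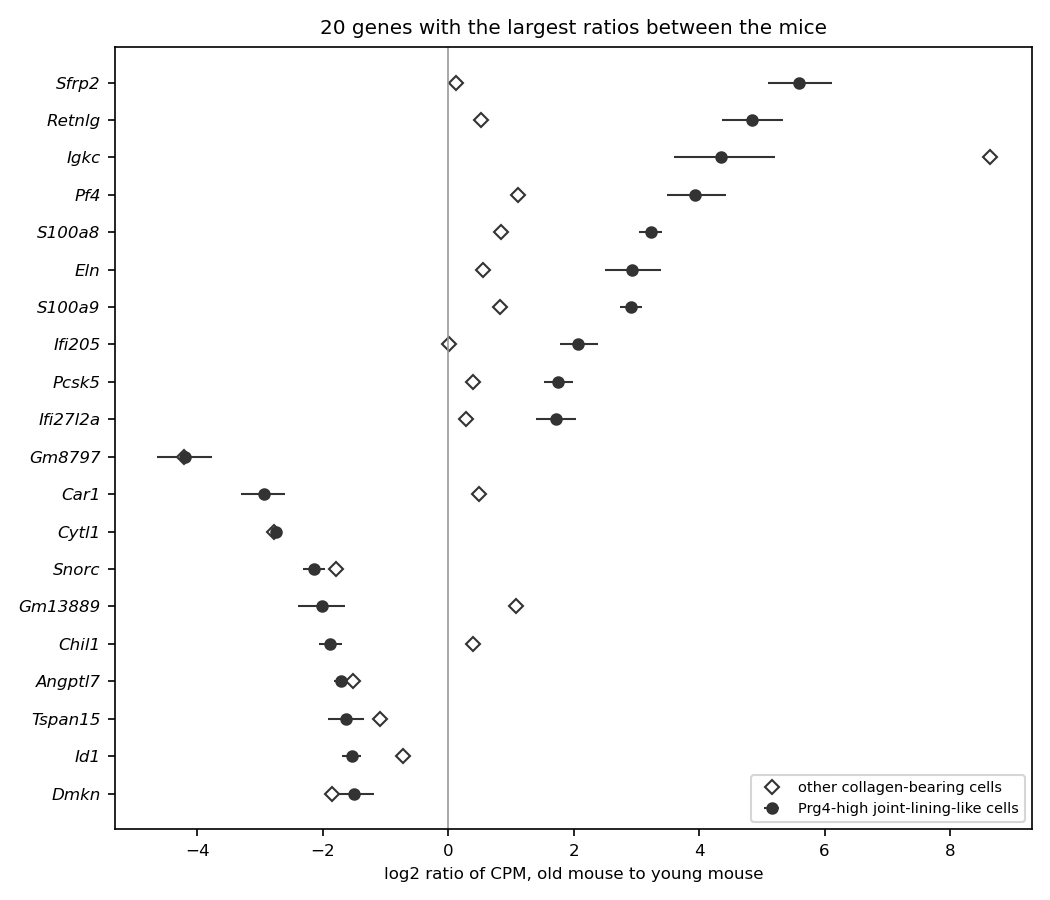
Log2 ratio of old to young CPM in the members for the 20 genes named by size, as points with 95% intervals for counting error, and the same ratio in other collagen-bearing cells as diamonds. Sfrp2 lies at 5.59 in the members and 0.13 in the other collagen-bearing cells, while Cytl1, Snorc and Angptl7 lie at similar negative ratios in both cell sets.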

How the data were processed

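The authors deposited matrices of raw UMI counts per gene and barcode, with the CD24 antibody counts as 1 further feature (Cell Ranger 6.1.1 per the file headers; mm10, R 4.0.3 and Seurat 4.0 in the submitters' processing notes). Barcodes with at least 200 genes and at most 20% mitochondrial UMIs were kept: 10063 of 11371 young and 5607 of 6729 old, holding 81076421 and 66702846 RNA UMIs. Predicted doublets were kept in the main analysis.

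UMIs were summed per mouse and cell set and tested with edgeR 4.0.16 (R 4.3.3; TMM, filterByExpr, quasi-likelihood, two-sided, adjusted p below 0.05 over all genes tested). Cells of 1 mouse are not replicates. The mouse pairs the sums, since both cell sets of a sum pair come from the same animal, and is the block. Genes that define the cell sets stayed in the fit and out of the counts. CPM are UMIs per 1e6 RNA UMIs of the sum. Python 3.11.15, NumPy 2.4.6, SciPy 1.17.1, pandas 2.3.3, scanpy 1.11.5 (Scrublet), scikit-learn 1.9.0 and matplotlib 3.10.9 did the rest. Intervals are 95% Poisson or Clopper-Pearson. On simulated counts false calls stayed near the set rate with trended dispersions and exceeded it with gene-wise ones in all but the fibrochondrocyte comparison.

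Genes named are the rule genes, 28 gene lists, the 15 highest and 10 lowest log2 fold changes among called genes with at least 50 CPM in the cells where they are higher in both mice, the 10 highest and 10 lowest age ratios past 2-fold, and the 10 genes most like Prg4. Members and lists were chosen with earlier results of these data known. Alternatives were other Prg4, mitochondrial, collagen and depth limits, F13a1 not used, doublets removed, thinning, DESeq2 1.42.0, DESeq2 size factors, no filter, no block and each mouse alone. Members with 2 or more partner genes were added after the data were seen. No sequence is shown, since the tables used hold none for Prg4.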

Additional observations from a re-analysis of the deposited data

How the results depend on the processing

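The share of members was 6.49% (young) and 6.69% (old) with at least 5 Prg4 UMIs, 4.53% and 4.76% with at least 20, and 3.82% in the old mouse after thinning to 5000 UMIs. Against other collagen-bearing cells 2708 genes were called, with 1221 after thinning to 2000 UMIs (1187 shared), 1509 by DESeq2, 1625 with no replicate block (1623 shared) and 1535 with at least 30 collagen UMIs. Against chondrocytes 864 were called, with 423 after thinning, 560 by DESeq2 and 1784 with no filter on low counts, where 62.1% were higher in place of 52.0%. Against fibrochondrocyte-like cells 360 were called (47.8% higher), with 69 after thinning, 73 by DESeq2 (13 higher, 60 lower), 83 with no replicate block (31.3% higher) and 116 for members with 2 or more partner genes (31.9% higher), an alternative chosen after seeing the data. Against Pi16 fibroblasts 2200 were called, with 1382 after thinning, 876 by DESeq2 and 1131 with no replicate block. Between ages 59 genes passed 2-fold, with 114 at 20 CPM, 1610 with no minimum beyond 3 UMIs and 95 after thinning. For members with 2 or more partner genes the values against other collagen-bearing cells turned for Sema5a (0.14), Vcan (-0.042) and Il6 (-0.87). Of 2797 single-gene values under alternatives 2639 kept direction and, where a test was made, the call. A further 155 kept direction but lost the call, and 3 turned. Values of each mouse alone carry no call and were counted by direction only. The causes of these changes were not tested. With 1 mouse per age no test of age can be made, and genes near 1 UMI per sum in the smaller sets are limited by depth.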
